A study of Mus musculus with 13 samples.

Results

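The 10 genes described here encode receptors, bridging ligands and an adaptor with which Sertoli cells take up apoptotic germ cells. They are *Mertk*, *Axl*, *Tyro3*, *Gas6*, *Pros1*, *Scarb1*, *Cd36*, *Mfge8*, *Elmo1* and *Adgrb1*, chosen by name, and all 10 were found among the 54281 features of the deposited table. RNA was sequenced from Sertoli cells of 13 adult C57Bl/6J wild-type males of 3 to 5 months of age. Of these, 6 were controls that had been left undisturbed, and 7 were MSUS males, which as pups had been separated from their mother at unpredictable times while the mother was stressed. Separation took 3 h per day from postnatal day 1 to 14, during which the mother was placed in cold water for 5 min or restrained for 20 min. Cells had been sorted as large diploid cells with a strong MitoTracker signal, so each library is an enriched preparation and not a pure cell type. Each library came from 1 mouse and is named by its group and mouse number. Litter and cage, which the paper lists for each mouse, were not analysed here. The p-values treat the 13 mice as independent and measure the spread between them. Littermates among them would share a mother, which could make these p-values too small. The comparison asks whether stress in early life left a trace in the transcripts of this uptake system in adult cells.

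In each wave of spermatogenesis many germ cells die and spermatids shed residual cytoplasm, and Sertoli cells engulf both. Dying cells expose phosphatidylserine. It is bound by the secreted ligands Gas6 and protein S, the product of *Pros1*, which link it to the receptor tyrosine kinases Tyro3, Axl and Mertk, together called TAM receptors. Mfge8 bridges phosphatidylserine to integrins, while Scarb1 and Cd36 are scavenger receptors for lipids and apoptotic cells. Adgrb1 binds phosphatidylserine directly and signals through Elmo1, which activates the GTPase Rac1 together with a Dock protein.

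Total estimated counts ranged from 12701776 to 18649945 per sample, of which 9776929 to 14383458 were on features with a gene name. The 9 Sertoli cell markers had a mean level of 8.98 ± 0.07 log2 CPM over controls (SD, n = 6), against 8.94 ± 0.08 over MSUS males (SD, n = 7). In log2 CPM not scaled by length, their control means ran from 4.51 for *Fshr* to 13.07 for *Clu*, with 8.67 for *Sox9*, 8.40 for *Wt1* and 7.95 for *Gata4*, and 0 of the 9 had p under 0.05 in limma. Macrophages also carry several of the genes described here, so 9 macrophage markers were examined. *Lyz2* was at 0 counts in all 13 samples, and the 8 markers other than *Mrc1* together held 0.781 to 2.13 CPM in controls and 0.860 to 2.90 CPM in MSUS samples, with at most 19 counts for any gene in any sample. *Mrc1* alone was abundant, with 8.87 ± 0.07 log2 CPM in controls (SD, n = 6). The score of the 4 elongated spermatid markers, their mean log2 CPM, varied more. It lay between 7.50 and 8.14 among controls, with summed levels of 846 to 1375 CPM, and between 7.26 and 8.56 among MSUS males, with 728 to 1772 CPM. Its mean was 7.90 ± 0.23 over controls (SD, n = 6) and 8.09 ± 0.46 over MSUS males (SD, n = 7). All 4 markers had higher estimates in MSUS samples, and 0 had p under 0.05 in limma. The paper proposes that transcripts of elongated spermatids such as *Prm2* likely come from spermatids engulfed by Sertoli cells. That origin was not tested here. The 6 Leydig cell markers together held 33.9 to 72.6 CPM per control and 42.0 to 85.6 CPM per MSUS sample. The 5 peritubular myoid markers held 8.02 to 62.8 CPM per control and 11.5 to 92.6 CPM per MSUS sample, with higher estimates in MSUS samples for all 4 that could be tested and 0 with p under 0.05 in limma. The 6 endothelial markers held 54.6 to 70.6 and 54.8 to 75.5 CPM, and 1 of them, *Tek*, was higher in MSUS samples with an unadjusted p = 0.0274 and an adjusted p = 0.878 in limma. In these bulk libraries fewer cells of a type and less RNA per cell cannot be told apart.

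Levels of different genes were compared per length, as log2 CPM per kilobase of the longest annotated transcript. In control samples *Mfge8* was the highest with 8.13 ± 0.15 (SD, n = 6), a level that exceeded 99.2% of all tested genes with a known length. *Gas6* followed with 7.04 ± 0.12, *Axl* with 6.75 ± 0.07 and *Scarb1* with 6.48 ± 0.08 (SD, n = 6 for each). *Tyro3* had 6.16 ± 0.13, *Pros1* 5.79 ± 0.09, *Elmo1* 4.84 ± 0.12 and *Mertk* 3.85 ± 0.11 (SD, n = 6 for each). These 8 genes were above the median gene, which had 2.80, and *Mertk* was above 68.9% of the genes. *Cd36*, with -0.91 ± 0.24 (SD, n = 6), was above only 8.16% of them, and *Adgrb1* was lower still, with -3.40 ± 0.53 (SD, n = 6). Transcripts of all 3 bridging ligands, of *Axl* and *Tyro3* and of *Scarb1* were thus each above at least 92.4% of the genes, while *Cd36* and *Adgrb1*, which take part in the same recognition step, were near the floor of the data.

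**Figure D1:**
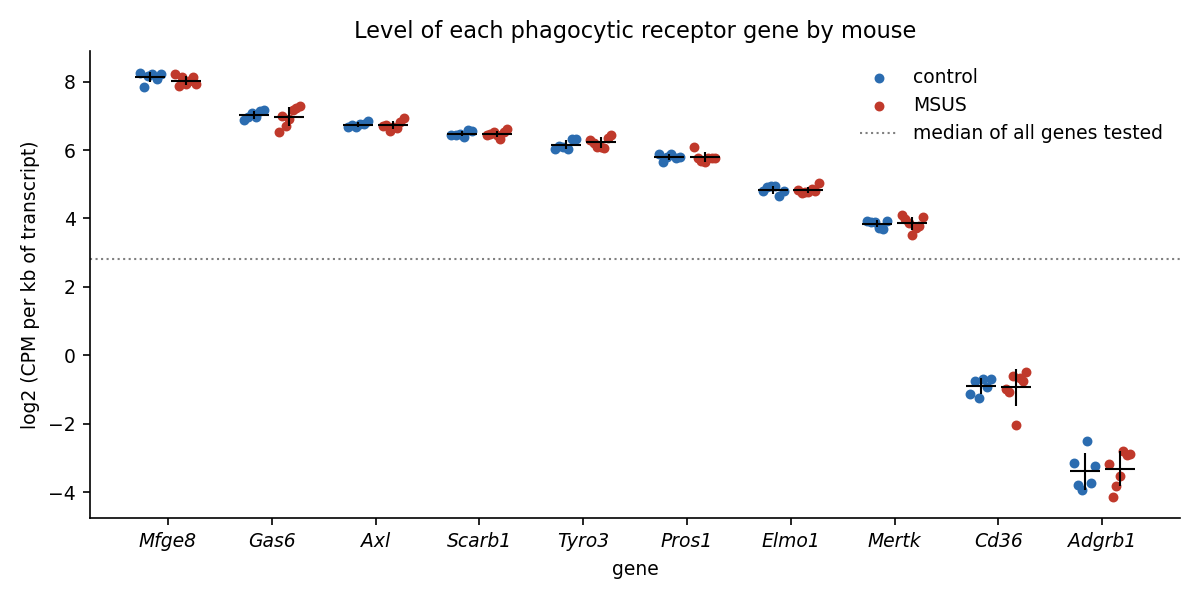
Level of each of the 10 genes in log2 CPM per kilobase of transcript (y axis), ordered by the control mean (x axis). Points are mice, horizontal bars are group means and vertical bars the SD over 6 control and 7 MSUS samples, and the dotted line marks the median of all genes tested at 2.80. Blue and red points lie over each other for every gene, while *Cd36* and *Adgrb1* lie far below the other 8 genes.

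In this order, the ranges of neighbouring genes did not overlap between control samples at any step, and each gene exceeded the next in 6 of 6 controls. In MSUS samples the same held in 7 of 7 for every step except *Gas6* over *Axl*, which was seen in 6 of 7. The order depends on the length used. *Gas6* has 1 annotated transcript, of 2548 bases, so its length was the same either way. The median lengths were much shorter than the longest for *Axl* (689.5 against 4265 bases), *Tyro3* (663 against 4460) and *Pros1* (863 against 3303). With the median annotated transcript in place of the longest, *Gas6* moved from rank 2 to rank 6, below *Pros1*, and the order was *Mfge8*, *Axl*, *Tyro3*, *Scarb1*, *Pros1*, *Gas6*, *Elmo1*, *Mertk*, *Cd36* and *Adgrb1*. The places of *Mfge8* at the top and of *Elmo1*, *Mertk*, *Cd36* and *Adgrb1* at the bottom were the same with both lengths.

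Among the TAM receptors, *Axl* (chromosome 7, 25757273 to 25788705, minus strand, GRCm38) made up 55.6% ± 1.3 of the summed CPM per kilobase in controls (SD, n = 6). *Tyro3* (chromosome 2, 119797733 to 119818104, plus strand) made up 36.9% ± 1.6, and *Mertk* (chromosome 2, 128698956 to 128802894, plus strand) 7.47% ± 0.72 (SD, n = 6 for each). In MSUS samples these shares were 54.2% ± 1.3, 38.3% ± 0.87 and 7.46% ± 0.82 (SD, n = 7 for each). *Axl* thus exceeded *Mertk* by 7.47-fold in controls and by 7.30-fold in MSUS samples. With the median transcript length, *Mertk* had a share of 1.52% in controls, so it was the lowest of the 3 receptors with either length.

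The sequences upstream of the TAM receptor starts are shown because *Axl* and *Tyro3* varied together between mice, as described further on, while *Mertk* had r = 0.286 with *Axl*. They were taken from RefSeq on GRCm38.p6 and cover 250 bases before the start for *Axl* (chr7:25788734-25788983, minus strand) and *Mertk* (chr2:128698665-128698914, plus strand). For *Tyro3* the last 98 bases are given (chr2:119799416-119799513, plus strand), since bases before them overlap annotated exons. Unlike the other 2 windows, that of *Tyro3* lies inside the GENCODE gene model, which begins at 119797733. It is thus upstream of the RefSeq start but not of the first annotated start. Capitals mark GGGCGG on either strand, the GC box.
Axl: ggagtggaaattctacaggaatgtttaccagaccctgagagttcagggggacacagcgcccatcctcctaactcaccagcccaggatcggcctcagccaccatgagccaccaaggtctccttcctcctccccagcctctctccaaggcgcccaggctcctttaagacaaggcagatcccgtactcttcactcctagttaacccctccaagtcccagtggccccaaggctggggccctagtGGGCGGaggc
Tyro3: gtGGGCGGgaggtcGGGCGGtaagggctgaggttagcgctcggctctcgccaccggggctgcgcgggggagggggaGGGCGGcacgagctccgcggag
Mertk: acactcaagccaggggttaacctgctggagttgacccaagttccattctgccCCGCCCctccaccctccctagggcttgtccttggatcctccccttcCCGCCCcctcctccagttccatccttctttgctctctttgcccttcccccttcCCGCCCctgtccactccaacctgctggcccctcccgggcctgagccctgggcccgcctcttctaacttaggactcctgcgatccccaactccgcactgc

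The GC box was present once for *Axl*, 3 times for *Tyro3* and 3 times for *Mertk*, and 33.0% of all 32536 distinct RefSeq windows of this length hold at least 1. On the full windows of 250 bases, *Tyro3* had 24 CpG dinucleotides, above or equal to 89.2% of all windows, against 7 for *Mertk* and 5 for *Axl*. The full window of *Tyro3* includes the bases that overlap annotated exons. Neither TATAAA, found in 12.3% of all windows, nor TGANTCA, the AP-1 motif found in 6.73%, occurred in any of the 3 windows on either strand. Of the 10 genes, 8 had a RefSeq window, and all 8 held a GC box in at least 1 window.

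The comparison of MSUS with control samples is given next, for each gene in log2 CPM. *Mertk*, the receptor best known for clearing photoreceptor debris and apoptotic germ cells, ranged from 5.79 to 6.03 in controls with a median of 6.01. In MSUS samples it ranged from 5.61, in MSUS 11, to 6.19, in MSUS 1, with a median of 5.96. The MSUS samples lay on both sides of the controls. Without MSUS 11 the log2 fold change was 0.07. With all samples the log2 fold change was 0.01 with a standard error of 0.09 (95% confidence interval -0.17 to 0.20, adjusted p = 0.984 in limma). *Axl*, which binds Gas6 in particular, lay between 8.76 and 8.95 in controls (median 8.84) and between 8.66 and 9.03 in MSUS samples (median 8.80). Its log2 fold change was -0.02 with a standard error of 0.06 (interval -0.14 to 0.10, adjusted p = 0.966 in limma).

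*Tyro3*, which responds to both Gas6 and protein S, lay between 8.19 and 8.48 in controls (median 8.27) and between 8.23 and 8.61 in MSUS samples (median 8.37). It had the largest positive estimate among the 9 tested of the 10 genes, a log2 fold change of 0.07 with a standard error of 0.07 (interval -0.09 to 0.22, adjusted p = 0.925 in limma), and 4 of 7 MSUS samples were above the control mean. With the elongated spermatid score as covariate the estimate was 0.12 with an adjusted p = 0.598 in limma, and the unadjusted value, 0.0534, did not pass the threshold of 0.05 in that fit either. For all 3 receptors the groups overlapped.

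Of the ligands, *Gas6* (chromosome 8, 13465374 to 13494490) ranged from 8.23 to 8.53 in controls with a median of 8.38. In MSUS samples it reached from 7.88, in MSUS 1, to 8.65, in MSUS 26, around a median of 8.34. The SD between mice was 0.12 in controls and 0.29 in MSUS samples. That difference in spread was not tested. The log2 fold change was -0.06 with a standard error of 0.11 (interval -0.28 to 0.16, adjusted p = 0.945 in limma), and without MSUS 1 it was 0.02. *Gas6* also had the largest biological coefficient of variation of the 8 abundant genes, 0.139, which was 1.48 times the median of the genes nearest to it in level.

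*Pros1* (chromosome 16, 62854307 to 62929346) lay between 7.36 and 7.61 in controls (median 7.51) and between 7.37 and 7.82 in MSUS samples (median 7.49). MSUS 1 was the highest of all samples for *Pros1* and the lowest of all for *Gas6*. The log2 fold change was 0.0019 with a standard error of 0.07 (interval -0.14 to 0.15, adjusted p = 0.997 in limma). Per kilobase, *Gas6* exceeded *Pros1* by 2.37-fold in controls and by 2.28-fold in MSUS samples. With the median transcript length *Gas6* was the lower one, as only the length used for *Pros1* changed, from 3303 to 863 bases.

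*Mfge8* (chromosome 7, 79133768 to 79149060), the bridge to integrins, ranged from 9.07 to 9.48 in controls with a median of 9.41. In MSUS samples it lay between 9.09 and 9.43 with a median of 9.23. Of the 7 samples 5 were below the control mean. Its log2 fold change of -0.09, with a standard error of 0.07 (interval -0.25 to 0.06, adjusted p = 0.890 in limma), came with the smallest unadjusted p among the 9 tested of the 10 genes, 0.203 in limma. Control 10 was the lowest control, and without it limma gave a log2 fold change of -0.15 with an unadjusted p = 0.0273 and an adjusted p = 0.611.

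The scavenger receptor *Scarb1* (chromosome 5, 125277087 to 125341094), which also takes up HDL cholesterol, ranged from 8.01 to 8.20 in controls with a median of 8.09. In MSUS samples it ranged from 7.95 to 8.26 with a median of 8.09. Its log2 fold change was -0.0049 with a standard error of 0.06 (interval -0.12 to 0.11, adjusted p = 0.989 in limma). Its biological coefficient of variation was 0.0829, at percentile 3.63 of the genes tested. The genes nearest to it in level had a median of 0.0947, so its ratio to them was 0.875. In all 13 samples the estimated count of *Scarb1* was not whole at a tolerance of 0.005, nor was that of *Elmo1* in 2 samples. Estimated counts can be divided between features, and no partner feature was found for *Scarb1*.

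*Cd36* (chromosome 5, 17781690 to 17888801) had 16 to 27 counts per control sample and 7 to 27 per MSUS sample. Its level lay between 0.51 and 1.08 log2 CPM in controls (median 0.92) and between -0.29 and 1.29 in MSUS samples (median 1.00), so the groups overlapped. The interval was wide, around a log2 fold change of -0.03 with a standard error of 0.29 (interval -0.64 to 0.58, adjusted p = 0.987 in limma). MSUS 11 was the lowest sample, and without it the log2 fold change was 0.17. Per kilobase *Scarb1* exceeded *Cd36* by 167-fold in controls and by 171-fold in MSUS samples. With the median transcript length the gap was wider, with control means of 8.39 and -0.57 log2 CPM per kilobase.

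*Elmo1* (chromosome 13, 20090596 to 20608353) lay between 7.10 and 7.40 in controls (median 7.31) and between 7.21 and 7.48 in MSUS samples (median 7.26). The log2 fold change was -0.0041 with a standard error of 0.06 (interval -0.14 to 0.13, adjusted p = 0.992 in limma). *Elmo1* shares 403 exonic bases with the antisense gene *Gm32036*. The libraries were made with a stranded kit, but whether reads were assigned by strand is not given in the sources used here. *Adgrb1* (chromosome 15, 74516195 to 74589465), the receptor upstream of Elmo1 in this scheme, had 3 to 9 counts per control sample and 2 to 8 per MSUS sample. It did not pass the count filter and was not tested, since so few counts leave its level poorly determined. Fitted without the filter, it had a log2 fold change of 0.15 with an interval from -0.78 to 1.09 (limma's adjusted p = 0.966).

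**Figure D2:**
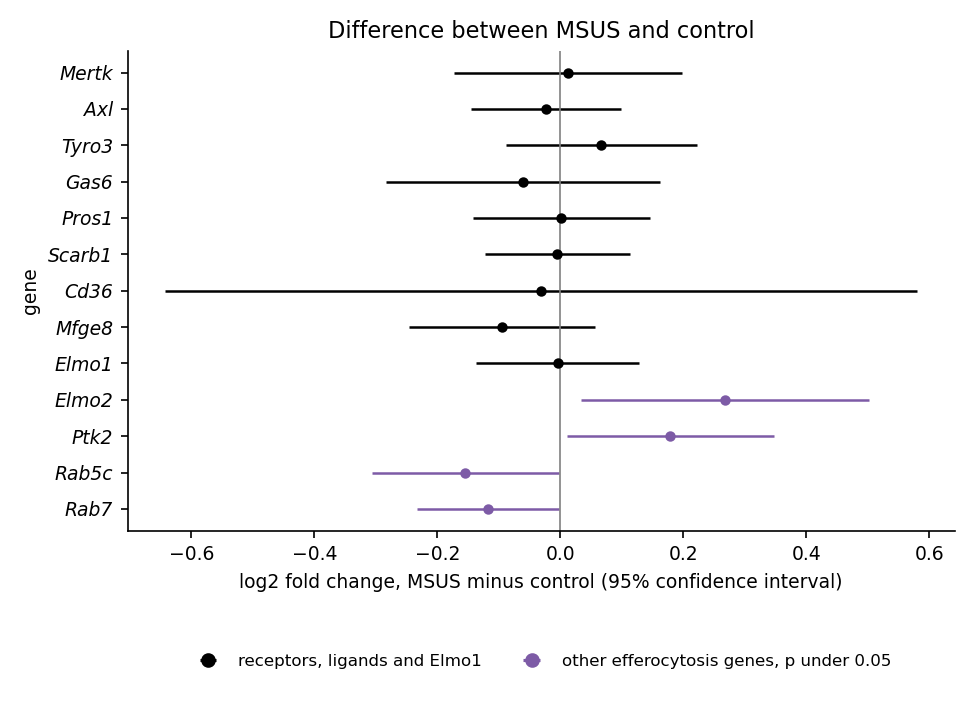
Log2 fold change of MSUS against control samples (x axis) with 95% confidence intervals from limma voom for the 9 tested genes (black) and for the 4 further efferocytosis genes with an unadjusted p under 0.05 (purple). All 9 black intervals include 0, and that of *Cd36*, from -0.64 to 0.58, is the widest.

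Of the 10 genes, 9 could be tested, and 0 of them had an unadjusted p-value under 0.05 in limma, against 5.42% of all 14421 genes tested. edgeR's quasi-likelihood test and DESeq2 also gave 0 of 9 at this threshold. With adjusted p-values the count was 0 as well, against 0% of all genes in limma. The groups did not separate for any of the 9 genes, while 0.132% of all genes had groups that did not overlap. Estimates were positive for 3 genes and negative for 6, with a median log2 fold change of -0.0049, against -0.0018 over all genes. For the 8 genes other than *Cd36*, the confidence intervals together ran from 0.822-fold to 1.17-fold, so larger changes of single genes lay outside the intervals.

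The other genes of the uptake pathway were taken as 5 lists with 68 genes in all, of which 51 passed the count filter. In limma, 4 of the 51 passed an unadjusted p of 0.05, or 7.84% against 5.42% of all genes, and 0 had an adjusted p-value under 0.05. The count lies near the background share and moved from 0, without MSUS 5, to 6 when single samples were left out. It was 1 without control 9 or control 12, and 2 without MSUS 6, MSUS 11 or MSUS 13.

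Among 16 further uptake receptors 7 were tested and 0 had p under 0.05 in limma, edgeR or DESeq2. Their most abundant gene per kilobase was *Itgb5*, a subunit of the integrin that Mfge8 engages, with 7.15 ± 0.15 log2 CPM per kilobase in controls (SD, n = 6). Its log2 fold change was 0.08 with a standard error of 0.09 and, in limma, an adjusted p = 0.925. The other 9 did not pass the count filter. Receptors known from myeloid cells differed in level. *Timd4* had 0 or 1 count in each sample, *Trem2* at most 7 and *Cd14* at most 10, whereas *Cd300lf*, which passed the filter, had 116 to 153 counts per control and 74 to 148 per MSUS sample.

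In the list of engulfment signals 13 of 16 genes were tested. In limma 2 had p under 0.05, or 15.4% against 5.42% of all genes. Both were higher in MSUS samples, as 3.02% of all genes were at this threshold. Over the list, 6 estimates were positive and 7 negative. *Elmo2*, the paralog of *Elmo1*, had a level of 3.49 ± 0.12 log2 CPM over controls (SD, n = 6), against 3.77 ± 0.17 over MSUS males (SD, n = 7). All 7 MSUS samples were above the control mean although the groups overlapped, and the log2 fold change was 0.27 with a standard error of 0.11 and, in limma, an adjusted p = 0.878. *Ptk2*, focal adhesion kinase, had a log2 fold change of 0.18 with a standard error of 0.08 and, in limma, an adjusted p = 0.878, and 6 of 7 MSUS samples exceeded the mean of the controls. The most abundant gene of the list per kilobase was the GTPase *Cdc42*, with 6.30 ± 0.05 (SD, n = 6) and a log2 fold change of -0.01.

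In the list of phagosome and LC3 genes 14 of 15 were tested. In limma 2 had p under 0.05, or 14.3% against 5.42% of all genes. Both were lower in MSUS samples, as 2.4% of all genes were at this threshold. Over the list, 6 estimates were positive and 8 negative. These 2 are Rab GTPases of phagosome maturation, *Rab7* with an unadjusted p = 0.0473 and *Rab5c* with 0.0465 in limma. The other Rab genes of the list had p above 0.05 in limma. Their log2 fold changes were -0.08 for *Rab5a*, -0.07 for *Rab5b* and 0.05 for *Rab14*. *Rab7*, of late phagosomes and the most abundant of the list with 5.96 ± 0.07 log2 CPM per kilobase in controls (SD, n = 6), had a log2 fold change of -0.12 with a standard error of 0.06 and, in limma, an adjusted p = 0.878. Its level was below the control mean in 7 of 7 MSUS samples. *Rab5c*, of early phagosomes, had a log2 fold change of -0.15 with a standard error of 0.07 and, in limma, an adjusted p = 0.878, and 6 of 7 MSUS samples were below the control mean.

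Of the 11 genes of lipid efflux after uptake 9 were tested, and of the 10 genes of eat-me and don't-eat-me signals 8 were tested. In both lists limma gave 0 genes with p under 0.05. *Nr1h2*, a liver X receptor, was the most abundant of the first with 5.66 ± 0.08 log2 CPM per kilobase in controls (SD, n = 6), and its log2 fold change was 0.04. *Calr*, the chaperone calreticulin, which also serves as an eat-me signal, led the second with 9.50 ± 0.09 on the same scale (SD, n = 6) and a log2 fold change of 0.07.

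How the genes varied from mouse to mouse was examined with the group means removed. Over 13 samples, *Axl* and *Tyro3* had the highest correlation of the 45 pairs among the 10 genes, with Pearson's r = 0.85 (permutation test within groups, p = 0.00027, adjusted over the 45 pairs p = 0.0121) and Spearman's rho = 0.824 (permutation p = 0.00181). MSUS 26, MSUS 23, control 22 and control 24 were high in both receptors. MSUS 6, MSUS 13, MSUS 11, control 9 and control 12 were low in both. Without MSUS 6 and MSUS 26, the samples farthest from the median of *Axl*, r was 0.812. Within controls r was 0.749 and within MSUS samples 0.915. No other pair had an adjusted p-value under 0.05, and the next was *Tyro3* and *Scarb1* (r = 0.787, rho = 0.714, permutation p = 0.00319 and 0.0101, adjusted p = 0.0718; r = 0.655 without MSUS 23 and MSUS 26). Genes outside the 10 followed each receptor more closely, such as *Itgb5* for *Tyro3* (r = 0.972) and *Stim1* for *Axl* (r = 0.912). How often such an r occurs among all pairs of genes was not tested.

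**Figure D3:**
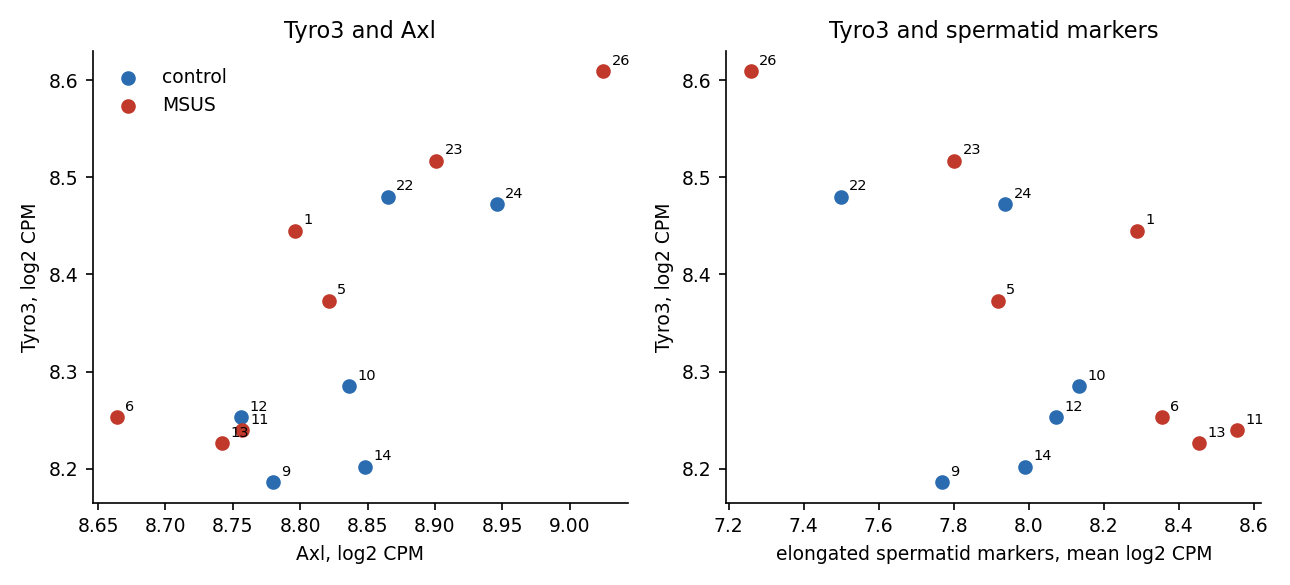
Level of *Tyro3* in log2 CPM (y axes) against that of *Axl* in log2 CPM (left) and against the mean log2 CPM of 4 elongated spermatid markers (right), with 1 point per mouse and its replicate number. *Tyro3* was higher in mice with more *Axl* (r = 0.85 with group means removed) and lower in mice with higher spermatid markers (r = -0.758), with r = -0.466 among controls and -0.898 among MSUS males.

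Each gene was also set against the 9 marker lists, and none of these 90 pairs had an adjusted p under 0.05. The elongated spermatid score had r = -0.758 with *Tyro3* (rho = -0.808, permutation p = 0.00448 and 0.0046), r = -0.771 with *Axl* (rho = -0.725, permutation p = 0.00833 and 0.00894) and r = -0.719 with *Scarb1* (rho = -0.67, permutation p = 0.0115 and 0.0159). Adjusted over the 90 pairs of a gene with a marker list, these p-values were 0.155, 0.156 and 0.173. Without MSUS 11 and MSUS 26, the samples farthest from the median of the score, r was -0.605 for *Tyro3*, -0.547 for *Axl* and -0.559 for *Scarb1*. Among controls alone r was -0.466 for *Tyro3*, -0.167 for *Axl* and -0.559 for *Scarb1*, and among MSUS males alone it was -0.898, -0.917 and -0.791. The round spermatid score also had negative r, of -0.605 with *Tyro3*, -0.512 with *Axl* and -0.441 with *Scarb1*. For these rho was -0.67, -0.489 and -0.401, and the permutation p for r was 0.0348, 0.162 and 0.2. The spermatocyte score had r = -0.216 with *Tyro3*, -0.167 with *Axl* and 0.0723 with *Scarb1* (rho = -0.434, -0.412 and -0.044, permutation p for r = 0.545, 0.647 and 0.83). *Scarb1* varied about as closely with the peritubular myoid score, in the opposite direction (r = 0.718, rho = 0.78, permutation p = 0.00864 and 0.00306, adjusted p = 0.156). That r was 0.8 without MSUS 5 and MSUS 26, 0.799 among controls and 0.676 among MSUS males. When the elongated spermatid score was regressed out of both genes of a pair, *Axl* and *Tyro3* had r = 0.639 against 0.85 before. *Tyro3* and *Scarb1* had r = 0.534 against 0.787, and *Axl* and *Scarb1* had r = 0.0845 against 0.592. The levels share library sizes and the scaling of each library, and the part of either in these relations was not tested.

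For the 5 known ligand and receptor pairs, the highest correlation was that of *Gas6* and *Axl*, with r = 0.62 (rho = 0.582, permutation test within groups, p = 0.0607 and 0.0572, adjusted over the 5 pairs p = 0.271). Without MSUS 1 and MSUS 26, r was 0.686. *Gas6* and *Tyro3* had r = 0.455, *Pros1* and *Mertk* r = 0.478, *Pros1* and *Tyro3* r = 0.12 and *Gas6* and *Mertk* r = -0.166, with rho of 0.478, 0.39, 0.0604 and -0.0604 and permutation p-values for r of 0.16, 0.163, 0.746 and 0.675. Without the 2 samples farthest from the median of the ligand, these r were 0.64, 0.409, -0.0627 and -0.065. None of the 5 pairs had an adjusted p under 0.05. Without MSUS 1 alone, the sample with the lowest *Gas6* and the highest *Pros1*, r was 0.76 for *Gas6* and *Axl*, 0.73 for *Gas6* and *Tyro3* and 0.19 for *Gas6* and *Mertk*. Without MSUS 26 alone, the sample with the highest *Gas6*, r was weaker for *Gas6* with *Axl* (0.473) and with *Tyro3* (0.284). For *Gas6* and *Mertk* it was more negative, at -0.41. With the elongated spermatid score regressed out over all samples, r was weaker for *Gas6* with *Axl* (0.392) and with *Tyro3* (0.0961). For *Gas6* and *Mertk* it was more negative, at -0.448 against -0.166 before.

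Genes were also ranked by how closely they followed each of 6 of the genes over the 13 samples with group means removed, among 7699 genes with a mean of at least 4 log2 CPM. *Tyro3* was followed most closely by *Itgb5* (r = 0.972), *Dctn1* (r = 0.953) and *Zfp408* (r = 0.949), and *Axl* by *Stim1* (r = 0.912), *Camsap3* (r = 0.91) and *Sema4b* (r = 0.9). For *Mertk* they were *Rnf20* (r = 0.946), *Rtf1* (r = 0.908) and *Sart1* (r = 0.901), and for *Scarb1* *Bfsp1* (r = 0.959), *Gna14* (r = 0.926) and *Daglb* (r = 0.907). *Gas6* was closest to *Gmcl1*, *Anxa11* and *Gata6* (r = 0.919, 0.919 and 0.917), and *Pros1* to *Fundc2*, *Gab1* and *Mapre2* (r = 0.927, 0.924 and 0.916). These are the highest of many values over few samples and are given as a description.

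**Figure D4:**
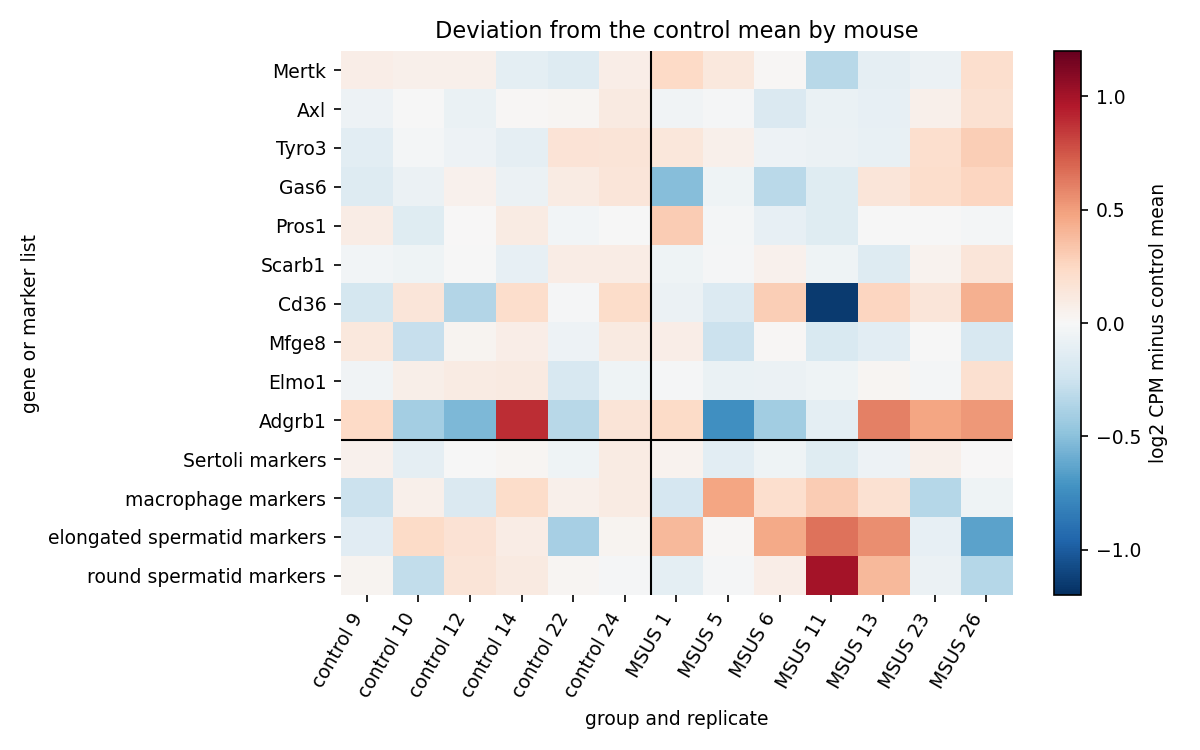
Deviation of each gene and of 4 marker lists from the control mean, in log2 CPM (color scale from blue, lower, to red, higher), for each of the 13 samples (columns). *Axl* and *Tyro3* have like colors along the samples, MSUS 11 combines low *Mertk* and *Cd36* with high spermatid markers, and the scarce *Cd36* and *Adgrb1* vary most.

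MSUS 11 had the highest round spermatid score, 4.89 against at most 4.28 in the other MSUS samples. Its elongated spermatid score was 8.56, close to the 8.46 of MSUS 13. It was also the lowest sample for *Mertk* and *Cd36*. The round spermatid score had r = -0.802 with *Mertk* (rho = -0.643, permutation p = 0.00518 and 0.0321, adjusted over 90 pairs p = 0.155), and r fell to -0.403 without MSUS 11 and MSUS 13, so the relation rests largely on those samples. *Mfge8* followed the Sertoli cell marker score (r = 0.797, rho = 0.736, permutation p = 0.00265 and 0.00922, adjusted p = 0.155), with r = 0.754 without MSUS 5 and MSUS 11.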

How the data were processed

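Libraries were made from 5 ng RNA with 12 PCR cycles and read single-end. The authors trimmed reads with Trim Galore 0.6.5, assigned them with Salmon 1.1.0 to GENCODE vM23 transcripts and deposited estimated counts per gene, not normalized. How transcripts were summed to genes is not given in the sources used here. Counts were rounded, and 27170 features with no gene name (20.7% to 26.7% of counts) were left out; 0 columns were unmatched. Groups came from the sample titles. The 78 pairs of libraries differed by 6.37 to 53.4 times sampling noise, so none was a copy.

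As in the study, counts were scaled by TMM (edgeR 4.0.16) and fitted with voom and limma 3.58.1 (R 4.3.3). Chosen here were filterByExpr, the group as the only term and Benjamini-Hochberg adjustment over 14421 genes. CPM values were put on the log2 scale after adding a prior count of 2. For the abundant genes the spread between mice exceeds counting error. Lengths and coordinates are from GENCODE vM21 (GRCm38), and 92.8% of tested genes had a length. The script was tested on simulated data. Correlations were tested by 100000 permutations within groups. Alternatives were edgeR's quasi-likelihood test, DESeq2 1.42.0, sample weights, other normalizations and filters, covariates, exact permutation tests and leaving out samples.

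Members and lists were chosen with earlier results of these data known. Named genes were the members, further efferocytosis genes with p under 0.05, the most abundant gene of each list, and the 3 genes most like each of 6 members. *Timd4*, *Trem2*, *Cd14*, *Cd300lf*, *Tek*, *Rab5a*, *Rab5b* and *Rab14* were added after values were seen.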

Additional observations from a re-analysis of the deposited data

Results flagged for a closer look

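For the 10 genes and 9 marker lists, the highest and the lowest mouse of each group were examined by Dixon's criterion at 95%, which divides the distance to the next mouse by the whole range. Among 38 sets of values, 4 held a mouse past it, where chance gives about 1.9, since about 1 in 20 groups is picked by chance. All 4 were MSUS samples. MSUS 1 had a *Pros1* level of 7.821 log2 CPM, while the other MSUS males lay between 7.37 and 7.51. MSUS 11 had a *Cd36* level of -0.2877 log2 CPM, from 7 counts, against 0.70 to 1.29 in the others. MSUS 26 had a *Elmo1* level of 7.478 log2 CPM, against 7.21 to 7.31 in the others. The endothelial marker score of MSUS 6 was 2.799, against 2.11 to 2.36 in the others. Endothelial cells are known to carry *Cd36*. In MSUS 6 *Cd36* was 1.16 log2 CPM, from 23 counts, and of all 13 samples only MSUS 26 was higher, with 1.29. Over the 13 samples with group means removed, *Cd36* had r = 0.165 with the endothelial score (permutation p = 0.546).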

How the results depend on the processing

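Over 25 alternatives for each of the 9 tested genes, 225 values in all, p under 0.05 was reached once, by *Mfge8* without control 10. The direction of *Tyro3* and *Mfge8* was kept in all 25, and 46 values of the other genes changed sign, with at most 0.174 on the log2 scale. With sample quality weights *Mertk* was -0.00059, *Pros1* -0.028 and *Cd36* 0.054, and with library size alone *Mertk* was -0.0034 and *Pros1* -0.013. With the elongated spermatid score as covariate *Axl* was 0.016, *Gas6* 0.0016, *Scarb1* 0.027, *Cd36* 0.077 and *Elmo1* 0.0020. With the macrophage score *Scarb1* was 0.0015, *Cd36* 0.0025 and *Elmo1* 0.0034, and with the Leydig score *Pros1* was -0.0024. *Cd36* was 0.025 in edgeR and 0.030 in DESeq2, where *Scarb1* was 0.00092. *Elmo1* was 0.00068 with DESeq2 size factors. *Pros1* was -0.00051 with no filter, -0.0045 with unnamed features kept and -0.00067 as a difference of means. Leaving out 1 sample gave -0.0271 to 0.070 for *Mertk*, -0.0532 to 0.0042 for *Axl*, -0.11 to 0.015 for *Gas6*, -0.0498 to 0.026 for *Pros1*, -0.0259 to 0.024 for *Scarb1*, -0.114 to 0.174 for *Cd36* and -0.0442 to 0.017 for *Elmo1*. It gave 0 to 1 of these genes and 0 to 6 further efferocytosis genes with p under 0.05. The latter numbered 2 with DESeq2 size factors, 2 with at least 1 CPM in 6 samples, 2 with the Leydig score and 1 with the macrophage score, against 4. The cause of these shifts was not tested. Leaving out 1 sample gave r of 0.473 to 0.76 for *Gas6* and *Axl*, -0.41 to 0.19 for *Gas6* and *Mertk*, 0.284 to 0.73 for *Gas6* and *Tyro3*, 0.207 to 0.576 for *Pros1* and *Mertk* and -0.0025 to 0.207 for *Pros1* and *Tyro3*. Without the 2 samples farthest from the ligand median, *Gas6* had r = 0.686 with *Axl* and 0.640 with *Tyro3*, both with permutation p under 0.05, and *Pros1* had r = -0.0627 with *Tyro3*. Regressing out the elongated spermatid score was added after seeing the data. No paired analysis was made, because the sample titles give only the group and the mouse number. Litter was not in the model either. Counts of at most 27 per sample limit what can be said of *Cd36*, and of at most 9 of *Adgrb1*.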
